A study of Homo sapiens with 7 samples.

Results

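Sprouty and Spred proteins are inhibitors that growth factor signalling switches on against itself. RNA of 6 of their genes, SPRY1, SPRY2, SPRY4, SPRED1, SPRED2 and SPRED3, was measured in SUM159, a breast cancer line that is triple-negative and mesenchymal. They were taken by name from 18417 genes that had an array probe with a single gene symbol, and each of the 6 had 1 such probe. The cells carried a lentiviral hairpin that doxycycline switches on. The hairpin was SHP2 sh2 on 3 arrays, SHP2 sh1 on 2 arrays and Ctrl shRNA on 2 arrays, and the labels also call these vectors SHP2 miR2, SHP2 miR1 and CTRL miR. Cells of all 3 groups, controls included, received doxycycline for 15 days in 2D culture, in F-12 medium with serum, insulin and hydrocortisone. Both SHP2 hairpins target PTPN11, the gene of SHP2, a tyrosine phosphatase that carries signals from receptors to RAS and ERK. No source used here says whether replicates are separate cultures, so the spread behind each p-value is that of these arrays and may be technical. A level here is the RNA of a whole culture, in which fewer cells of a type and less RNA per cell cannot be told apart.

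Receptor tyrosine kinases activate RAS through the adaptor GRB2 and the exchange factor SOS, and RAS then activates ERK through a chain of kinases. ERK signalling induces the transcription of Sprouty genes, whose proteins bind adaptors or ubiquitin ligases and dampen the pathway. SHP2 is known to remove the tyrosine phosphate that Sprouty proteins need for this. Spred proteins carry neurofibromin, which switches RAS off, to the plasma membrane. The comparison asked whether the RNA of these inhibitors was higher or lower in cells with an SHP2 hairpin.

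The region around a start site is where transcription factors of the pathway could bind, so the start regions of the 6 genes were read for ETS and AP-1 letters. RefSeq (build GRCh38.p14) gave 11 windows of 300 bases for the 6 genes, each with 250 bases before a start site and 50 after it. ETS factors are ERK substrates and were searched as CCGGAA, with TTCCGG for the other strand. AP-1, the FOS and JUN dimer, was searched as TGAGTCA, with TGACTCA for the other strand. The ETS letters stood in 2 of the 11 windows, 1 each of SPRY1 and SPRY2, against 17.2% of all 35116 windows. The AP-1 letters stood in 2 windows, 1 each of SPRED2 and SPRED3, against 4.95% of all windows. The windows below were chosen to show both ETS matches, the match nearest a start site, and SPRY4, whose level varied most between arrays. Capitals mark matched letters, and each sequence runs 5′ to 3′ on the strand of the gene.
SPRY1, second start site, chr4:123398136-123398435, plus strand: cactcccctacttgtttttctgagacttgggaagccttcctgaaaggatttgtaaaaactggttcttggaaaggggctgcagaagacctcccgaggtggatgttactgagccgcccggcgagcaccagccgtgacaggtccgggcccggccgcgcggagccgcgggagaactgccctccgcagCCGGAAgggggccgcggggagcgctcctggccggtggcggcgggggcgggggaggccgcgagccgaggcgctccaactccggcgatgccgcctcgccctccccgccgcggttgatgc
SPRY2, first start site, chr13:80341077-80341376, minus strand: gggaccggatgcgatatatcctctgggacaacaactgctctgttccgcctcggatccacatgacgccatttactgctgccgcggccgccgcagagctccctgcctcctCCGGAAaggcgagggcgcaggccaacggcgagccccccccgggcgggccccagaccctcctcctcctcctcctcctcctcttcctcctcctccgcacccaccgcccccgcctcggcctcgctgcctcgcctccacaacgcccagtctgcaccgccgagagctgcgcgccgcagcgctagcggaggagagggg
SPRY4, chr5:142324198-142324497, minus strand: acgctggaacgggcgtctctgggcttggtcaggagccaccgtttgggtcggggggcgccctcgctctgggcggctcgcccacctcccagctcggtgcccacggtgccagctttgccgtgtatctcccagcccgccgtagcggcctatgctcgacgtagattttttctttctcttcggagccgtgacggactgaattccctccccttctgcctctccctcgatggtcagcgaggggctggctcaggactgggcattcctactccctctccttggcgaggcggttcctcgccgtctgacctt
SPRED2, second start site, chr2:65366729-65367028, minus strand: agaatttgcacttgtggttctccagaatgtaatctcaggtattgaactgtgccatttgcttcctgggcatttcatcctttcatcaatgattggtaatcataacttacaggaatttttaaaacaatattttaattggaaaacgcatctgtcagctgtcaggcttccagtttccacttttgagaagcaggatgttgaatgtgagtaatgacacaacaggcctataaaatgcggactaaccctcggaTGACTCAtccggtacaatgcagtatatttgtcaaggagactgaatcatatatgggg
Counted from the start site, the ETS letters began at base -67 in SPRY1 and -142 in SPRY2, and the AP-1 letters at base -6 in SPRED2. A match is a description of the sequence and does not show that a factor binds there.

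PTPN11 was 7.96, 7.20 and 7.89 (log2 expression) with SHP2 sh2 and 7.90 and 6.93 with SHP2 sh1, against 9.53 and 9.18 with Ctrl shRNA. All 5 hairpin arrays thus lay below both controls, as for 7.17% of all genes. Of 8 mesenchymal markers, 7 were in the brightest of 4 equal classes of genes by control level (class 4), whereas all 5 measured blood cell markers and all 5 endothelial markers were in classes 1 and 2. Summed over each list, the mesenchymal level (log2) was 13.98 to 14.5 with SHP2 sh2 and 14.5 to 14.7 with SHP2 sh1, against 14.5 on both Ctrl shRNA arrays. The blood level was 7.78 to 8.31, 7.65 to 8.06 and 7.61 to 7.73 in these 3 groups, and the endothelial level 8.16 to 8.58, 8.29 to 8.54 and 7.87 to 8.13. Of 9 epithelial and luminal markers, 4 were in class 1, the dimmest, and their summed level was 11.1 to 11.9 with SHP2 sh2 and 11.6 with SHP2 sh1, against 11.5 to 11.7 with Ctrl shRNA. KRT8 and KRT18, the brightest of these 9, carry that sum. The median difference of the 9 markers from the control mean was 0.39 on replicate 2 of SHP2 sh2 and 0.49 on replicate 2 of SHP2 sh1, against 0.07 to 0.08 on the other SHP2 sh2 arrays and 0.02 on the other SHP2 sh1 array. On these replicate 2 arrays the median was 0.59 and 0.35 for the blood markers and 0.57 and 0.25 for the endothelial markers. It was -0.79 and -0.10 for the mesenchymal markers. Over all genes it was 0.53 and 0.26 in class 1, 0.63 and 0.36 in class 2 and -1.01 and -0.61 in class 4. The part of these markers in the results was not tested. Replicate 2 of SHP2 sh2 and replicate 2 of SHP2 sh1 stood apart from the other arrays. They correlated at 0.972 with each other and at 0.886 to 0.965 with the other 5 arrays, which correlated at 0.981 to 0.992 among themselves. Fold changes are therefore also given without both arrays, a choice made after seeing the data. Then SHP2 sh1 is 1 array, assumed to vary like the other groups.

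None of the 6 genes passed an adjusted p of 0.05 in any comparison, and neither did any other gene. limma called 0 of 18417 genes (0%) for the average of the 2 hairpins against Ctrl shRNA (the hairpin average), for SHP2 sh2, for SHP2 sh1, and for SHP2 sh2 against SHP2 sh1. Without adjustment, a p under 0.05 was given to 358 genes (1.94%) for the hairpin average, 432 (2.35%) with SHP2 sh2, 201 (1.09%) with SHP2 sh1 and 116 (0.63%) between the hairpins, and to 0 of the 6 genes in each. For each of the 6 genes the adjusted p was 0.667 with SHP2 sh2 and 0.9945 with SHP2 sh1. The log2 fold change of SPRY2, SPRY4, SPRED1 and SPRED2 lay below 0 for the hairpin average, where 42% of all genes did. The same 4 genes were below 0 with SHP2 sh2, where 42.8% of all genes were, and with SHP2 sh1, where 43.5% were. Both hairpins were set against the same controls, so these counts are not independent. SPRY1 and SPRED3 had values above 0 in all these comparisons. The median over the 6 genes was -0.37 for the hairpin average, against 0.075 over all genes, and 0.0049 against 0.0018 without the arrays that stood apart.

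**Figure D1:**
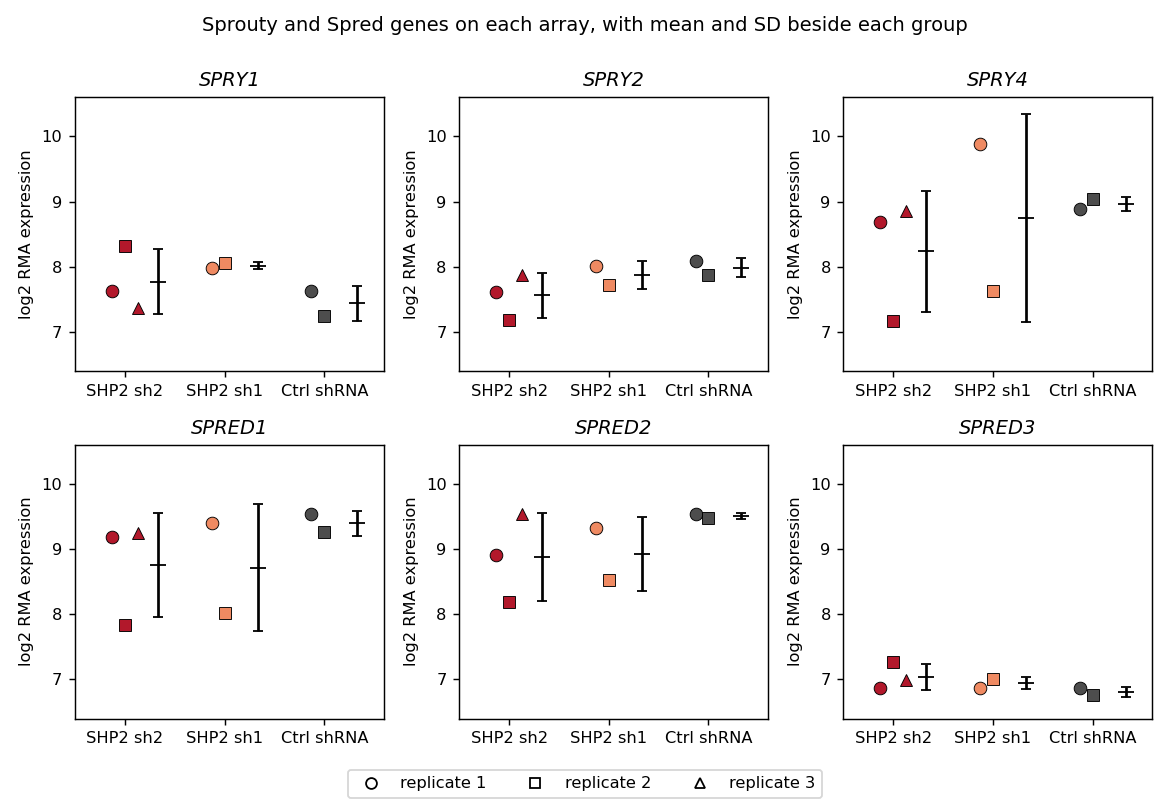
Log2 RMA expression of the 6 genes on the 7 arrays. Symbols give the replicate number, and bars the mean and SD of a group. SPRY4, SPRED1 and SPRED2 are lowest on replicate 2 of each SHP2 hairpin, at 7.16 and 7.63 for SPRY4, whereas SPRY1 and SPRED3 are highest there.

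Among the Sprouty genes, SPRY4 varied most within a group. The SPRY4 protein binds the kinase TESK1 and suppresses ERK activation by VEGF. SPRY4 was 8.69, 7.16 and 8.85 (log2 expression) with SHP2 sh2 and 9.88 and 7.63 with SHP2 sh1, against 8.89 and 9.04 with Ctrl shRNA. The 3 SHP2 sh2 arrays were below both controls, by 0.03 on replicate 3, and the 2 SHP2 sh1 arrays lay on opposite sides of them. SPRY4 averaged 8.23 ± 0.93 with SHP2 sh2 (SD, n = 3) and 8.75 ± 1.59 with SHP2 sh1 (n = 2), against 8.96 ± 0.11 with Ctrl shRNA (n = 2). The log2 fold change was -0.47 for the hairpin average (standard error 0.69, 95% interval -2.13 to 1.19, adjusted p = 0.769 from limma). Its SHP2 sh1 arrays differed by 2.25, which is wider than any difference between the group means.

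The direction of SPRY4 rested on the arrays that stood apart. Leaving out replicate 2 of SHP2 sh1 alone gave 0.095 for the hairpin average. Without both arrays its log2 fold change was 0.36 for the hairpin average (95% interval 0.08 to 0.65, adjusted p = 0.574). It was -0.19 with SHP2 sh2 (-0.50 to 0.11, adjusted p = 0.496) and 0.92 with SHP2 sh1 (0.55 to 1.29, adjusted p = 0.393). SHP2 sh2 minus SHP2 sh1 was -0.52 over all arrays (-2.32 to 1.28, adjusted p = 1) and -1.11 without those arrays (-1.48 to -0.74, adjusted p = 0.247). The single SHP2 sh1 array left then had the highest SPRY4 level of the 7 arrays, and none of these values passed the threshold.

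SPRY1 had values above the controls with SHP2 sh1. The SPRY1 protein is a membrane-bound inhibitor of FGF, VEGF and GDNF receptor signalling. SPRY1 was 7.63, 8.32 and 7.36 with SHP2 sh2 and 7.98 and 8.05 with SHP2 sh1, against 7.63 and 7.25 with Ctrl shRNA. Both SHP2 sh1 arrays were above both controls, and the SHP2 sh2 arrays overlapped them. The mean was 7.77 ± 0.50 with SHP2 sh2 and 8.01 ± 0.05 with SHP2 sh1, against 7.44 ± 0.27 with Ctrl shRNA (SD, n = 3, 2 and 2). SPRY1 had a log2 fold change of 0.45 for the hairpin average (standard error 0.29, 95% interval -0.24 to 1.15, adjusted p = 0.758), 0.33 with SHP2 sh2 and 0.57 with SHP2 sh1. Without the arrays that stood apart these were 0.30, 0.06 and 0.54. The 2 SHP2 sh1 arrays differed by 0.076.

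SPRY2 was lower than both controls on the 3 SHP2 sh2 arrays. The SPRY2 protein binds the ubiquitin ligase CBL, which otherwise tags growth factor receptors for breakdown. SPRY2 was 7.62, 7.19 and 7.88 with SHP2 sh2 and 8.02 and 7.72 with SHP2 sh1, against 8.09 and 7.88 with Ctrl shRNA. Replicate 3 of SHP2 sh2 was below the lower control only in the third decimal, at 7.877 against 7.879, so this separation is within the spread of the controls. SPRY2 averaged 7.56 ± 0.35 with SHP2 sh2 and 7.87 ± 0.21 with SHP2 sh1, against 7.98 ± 0.15 with Ctrl shRNA. The log2 fold change was -0.27 for the hairpin average (standard error 0.24, 95% interval -0.84 to 0.30, adjusted p = 0.758), -0.42 with SHP2 sh2 (-1.04 to 0.19) and -0.11 with SHP2 sh1 (-0.79 to 0.56). Without the arrays that stood apart these were -0.10, -0.24 and 0.04.

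SPRED1 and SPRED2 had similar profiles over the arrays. The SPRED1 protein brings neurofibromin to RAS at the membrane, and loss of a SPRED1 copy causes Legius syndrome, a disorder of raised RAS activity. SPRED1 was 9.18, 7.84 and 9.25 with SHP2 sh2 and 9.40 and 8.03 with SHP2 sh1, against 9.53 and 9.26 with Ctrl shRNA. Only replicate 2 of each hairpin was far from the controls, although all 3 SHP2 sh2 arrays were under the lower one, by 0.006 on replicate 3. SPRED1 averaged 8.76 ± 0.80 with SHP2 sh2 (SD, n = 3) and 8.71 ± 0.97 with SHP2 sh1 (n = 2), against 9.39 ± 0.19 with Ctrl shRNA (n = 2). Its log2 fold change was -0.66 for the hairpin average (standard error 0.52, 95% interval -1.89 to 0.57, adjusted p = 0.758), and -0.08 (-0.42 to 0.25) without the arrays that stood apart. It was -0.64 with SHP2 sh2 and -0.68 with SHP2 sh1, against -0.18 and 0.0098 without those arrays.

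SPRED2, whose protein also binds neurofibromin, was 8.90, 8.19 and 9.53 with SHP2 sh2 and 9.32 and 8.52 with SHP2 sh1, against 9.54 and 9.48 with Ctrl shRNA. Both SHP2 sh1 arrays were below both controls, and replicate 3 of SHP2 sh2 lay between them. SPRED2 averaged 8.88 ± 0.67 with SHP2 sh2 (SD, n = 3) and 8.92 ± 0.57 with SHP2 sh1 (n = 2), against 9.51 ± 0.05 with Ctrl shRNA (n = 2). SPRED2 had a log2 fold change of -0.61 for the hairpin average (standard error 0.39, 95% interval -1.55 to 0.33, adjusted p = 0.758), -0.63 with SHP2 sh2 and -0.59 with SHP2 sh1. Without the arrays that stood apart these were -0.24, -0.29 and -0.19. SPRED2 was also lower than the controls on replicate 1 of SHP2 sh2, by 0.61 from the control mean. This array did not stand apart, but the median of all class 4 genes, SPRED2 among them, was at -0.18 there.

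SPRED3 was the member with the narrowest range. Its protein resembles the other Spreds but lacks a working domain for binding the receptor KIT. SPRED3 was 6.88, 7.26 and 6.99 with SHP2 sh2 and 6.88 and 7.01 with SHP2 sh1, against 6.87 and 6.76 with Ctrl shRNA. All 5 hairpin arrays were above both controls, the lowest by 0.01. SPRED3 averaged 7.04 ± 0.20 with SHP2 sh2 (SD, n = 3) and 6.94 ± 0.09 with SHP2 sh1 (n = 2), against 6.81 ± 0.08 with Ctrl shRNA (n = 2). Its log2 fold change was 0.18 for the hairpin average (standard error 0.18, 95% interval -0.26 to 0.62, adjusted p = 0.758), and 0.09 (-0.13 to 0.32) without the arrays that stood apart. With SHP2 sh2 it was 0.23, and 0.12 without replicate 2 of each hairpin. With SHP2 sh1 it was 0.13, and 0.07 without its replicate 2.

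**Figure D2:**
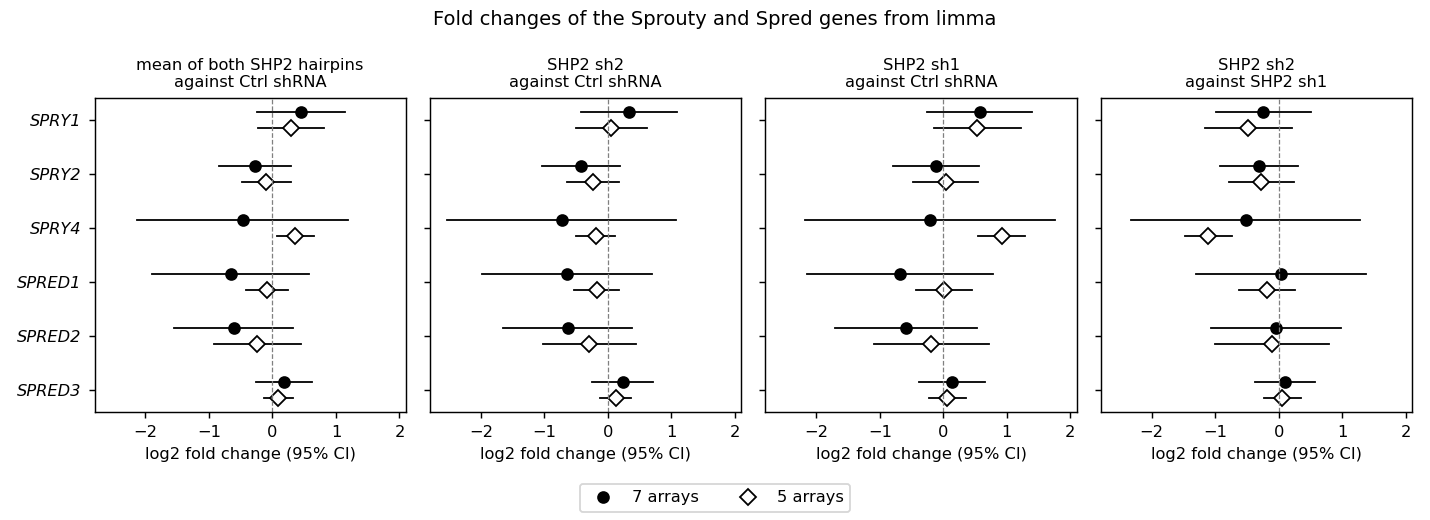
Log2 fold change of each gene in 4 comparisons, with its 95% confidence interval from limma, over all 7 arrays (filled) and over the 5 arrays left without replicate 2 of each SHP2 hairpin (open). Every interval over 7 arrays spans 0, and over 5 arrays those of SPRY4 do not for the hairpin average, SHP2 sh1, and SHP2 sh2 against SHP2 sh1, with no adjusted p under 0.05.

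Groups that did not overlap were counted for the 6 genes and for all genes. For both hairpins against the controls, 0 of the 6 genes were below them on all 5 arrays, where 7.17% of all genes were, and SPRED3 alone was above them, where 8.13% were. With SHP2 sh2, SPRY2, SPRY4 and SPRED1 were below both controls on all 3 arrays (16.1% of all genes) and SPRED3 was above (24.2%). With SHP2 sh1, SPRED2 was below on both arrays (12.3% of all genes), and SPRY1 and SPRED3 were above (12.8%). Between the hairpins, 0 of the 6 genes had all SHP2 sh2 arrays below both SHP2 sh1 arrays (3.08% of all genes) or above them (2.21%).

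Between the 2 hairpins no member passed either. The log2 fold change of SHP2 sh2 against SHP2 sh1 was -0.24 for SPRY1 (95% interval -0.99 to 0.51), -0.31 for SPRY2 (-0.92 to 0.31), 0.04 for SPRED1 (-1.30 to 1.38), -0.05 for SPRED2 (-1.06 to 0.97) and 0.10 for SPRED3 (-0.37 to 0.57), with an adjusted p of 1 for each from limma. Without the arrays that stood apart it was -0.48 for SPRY1 (-1.16 to 0.20), -0.27 for SPRY2 (-0.78 to 0.23), -0.19 for SPRED1 (-0.63 to 0.25), -0.10 for SPRED2 (-1.005 to 0.80) and 0.06 for SPRED3 (-0.24 to 0.35). SPRED1 thus turned from above to below 0, and the smallest adjusted p of these 5 genes was 0.350. Intervals this wide do not show that the hairpins act alike.

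Replicate 2 was below the other arrays of its own hairpin in both hairpins for SPRY2, SPRY4, SPRED1 and SPRED2, as for 33.7% of all genes, and above them for SPRY1 and SPRED3, as for 47.5%. These shifts were set beside those of all genes of similar brightness, since the arrays that stood apart shifted bright and dim genes in opposite directions. The 4 classes of genes follow the mean level with Ctrl shRNA, a measure of probe brightness that does not rank transcripts by abundance. SPRY4, SPRED1 and SPRED2 were in class 4, SPRY1 and SPRY2 in class 3 and SPRED3 in class 2. In class 4, the median difference from the control mean was -1.01 on replicate 2 of SHP2 sh2 and -0.61 on replicate 2 of SHP2 sh1. SPRY4 was at -1.80 and -1.34 on these arrays, SPRED1 at -1.56 and -1.37, and SPRED2 at -1.32 and -0.99, all lower than the median of their class. In class 3 the medians were -0.10 and -0.01, against 0.88 and 0.61 for SPRY1 and -0.79 and -0.27 for SPRY2. In class 2 they were 0.63 and 0.36, against 0.45 and 0.20 for SPRED3. How far these shifts of whole classes enter the fold changes was not tested.

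**Figure D3:**
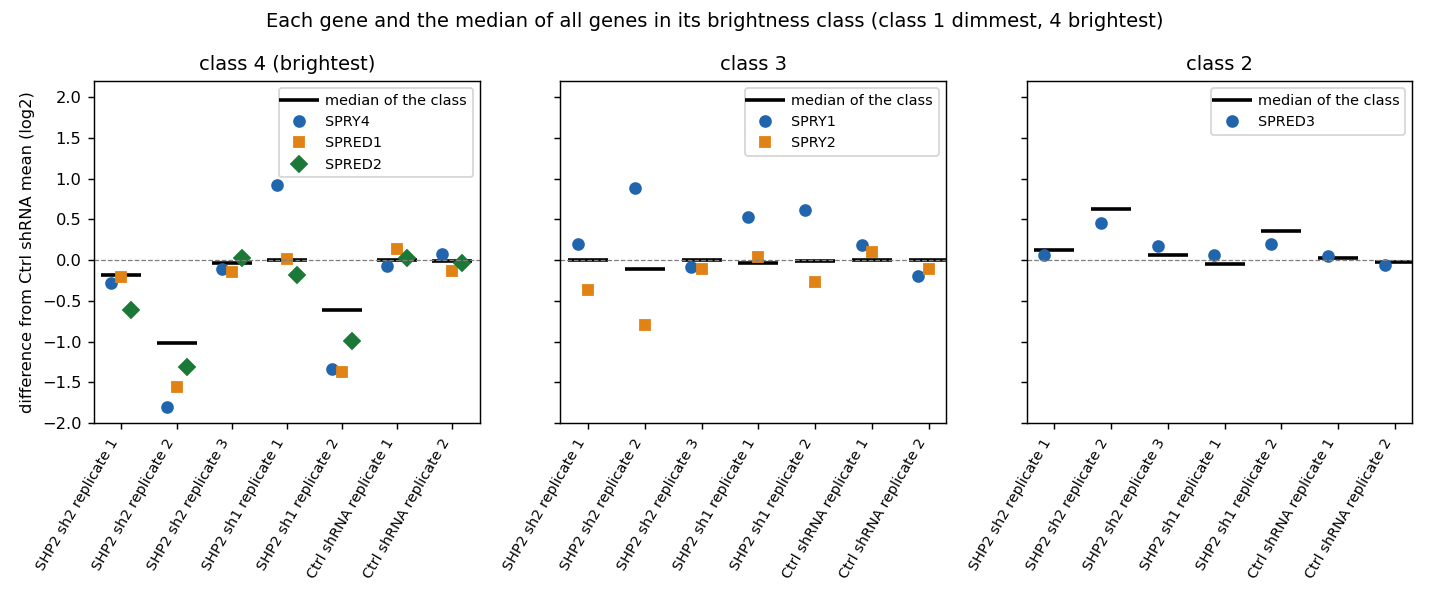
Difference from the Ctrl shRNA mean (log2) on each array for the 6 genes, with the median over all genes of the same brightness class as a bar. On replicate 2 of SHP2 sh2 the bar of class 4 is at -1.01 and SPRY4, SPRED1 and SPRED2 lie between -1.80 and -1.32.

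The members were not equally alike. The difference from the control mean was compared between genes over the 7 arrays as a root mean square difference on the log2 scale, where 0 is the same profile. SPRED1 and SPRED2 were closest (0.253), followed by SPRY1 and SPRED3 (0.316), SPRY2 and SPRED2 (0.364), and SPRY4 and SPRED1 (0.374), whereas SPRY1 and SPRY4 were farthest apart (1.28). Many other genes were closer: among all genes, SPRED2 ranked 1013 by likeness to SPRED1, SPRED3 ranked 4599 to SPRY1, SPRED2 ranked 4540 to SPRY2 and SPRED1 ranked 749 to SPRY4. Genes with small changes are close to each other by this measure, and the arrays that stood apart weigh heavily in it.

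Of the 18416 other genes, the one nearest to SPRY4 was RAB8B (0.0741), a small GTPase of vesicle traffic, and the next was CXCL8 (0.114), which encodes the chemokine IL-8. The median over all genes was 1.03. CXCL8 differed from its control mean by -0.20, -1.88 and -0.08 on the SHP2 sh2 arrays and by 1.12 and -1.15 on the SHP2 sh1 arrays, against -0.05 and 0.05 on the controls. SPRY4 differed by -0.28, -1.80 and -0.11 with SHP2 sh2 and by 0.92 and -1.34 with SHP2 sh1, against -0.07 and 0.07 with Ctrl shRNA. Both were thus above the controls on replicate 1 of SHP2 sh1 and far below them on replicate 2 of each hairpin.

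**Figure D4:**
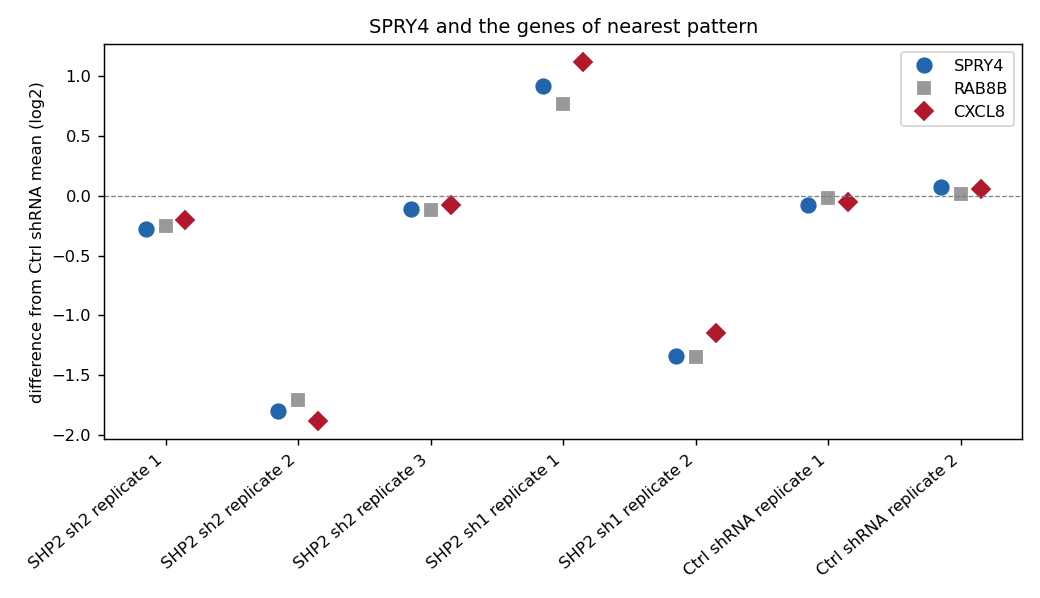
Difference from the Ctrl shRNA mean (log2) on each array for SPRY4 and the 2 genes of nearest pattern, RAB8B and CXCL8. All 3 lie above 0 on replicate 1 of SHP2 sh1, with SPRY4 at 0.92 and CXCL8 at 1.12, and below -1 on replicate 2 of both SHP2 hairpins.

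The genes nearest to SPRY1 were LRRC7 (0.0821) and AWAT2 (0.0923), and those nearest to SPRY2 were WLS (0.0481), which carries WNT proteins to the cell surface, and HMGN1 (0.0626), a nucleosome-binding protein. The nearest to SPRED1 were ACOT9 (0.0348), a mitochondrial thioesterase, and BCAS2 (0.0514), a splicing factor. The nearest to SPRED2 were METTL14 (0.0609), a subunit of the RNA m6A methyltransferase, and PLS1 (0.0892), an actin-bundling protein. The nearest to SPRED3 were CARD19 (0.0181) and OR8G5 (0.0379). No nearest gene was another Sprouty or Spred gene.

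The other genes of the pathway were counted in lists. Of 24 receptors, adaptors and other proteins that bind Sprouty or Spred or that they act on, 19 were measured. Of these, 0 passed the threshold in either direction. For the hairpin average, 14 lay below 0 and 5 above it, where 42% of all genes lay below. The median log2 fold change was -0.32, against 0.075 over all genes. Without the arrays that stood apart 9 lay below 0, and the median was 0.01, against 0.0018 over all genes. Over all 7 arrays, PTPN11 was lowest at -1.80, followed by NEDD4, a ubiquitin ligase of SPRY2, at -0.88. FGFR1, a receptor that Sprouty proteins restrain, was highest at 0.97, and GAB1, a docking protein that recruits SHP2, was next at 0.45.

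FGFR1 was 7.09, 7.54 and 7.92 with SHP2 sh2 and 6.92 and 7.27 with SHP2 sh1, against 6.45 and 6.23 with Ctrl shRNA. All 5 hairpin arrays were above both controls, as for 8.13% of all genes, and FGFR1 was named as the highest of its list. Its log2 fold change was 0.87 without the arrays that stood apart, and did not pass over all 7 (adjusted p = 0.758 from limma). PTPN11 was at -1.44, GAB1 at 0.13 and NEDD4 at -0.21 without them.

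Of 16 genes that ERK signalling induces, the Sprouty genes left out, 15 were measured and 0 passed. For the hairpin average, 12 lay below 0 and 3 above it, where 42% of all genes lay below. The median was -0.21, against 0.075 over all genes. Without the arrays that stood apart 6 lay below 0, and the median was 0.07, against 0.0018 over all genes. Over all 7 arrays, the lowest were EPHA4, an ephrin receptor, at -1.01 and DUSP6, a phosphatase of ERK, at -0.73. The highest were FOSL1, an AP-1 subunit, at 0.30 and DUSP4, a nuclear phosphatase of MAP kinases, at 0.10. With the arrays that stood apart left out, FOSL1 was at 0.22 and DUSP4 at 0.36, and IER3 (0.65), DUSP5 (0.52) and PHLDA1 (0.44) lay above both. EPHA4 was 7.50, 7.27 and 6.87 with SHP2 sh2 and 7.79 and 7.87 with SHP2 sh1, against 8.37 and 8.69 with Ctrl shRNA. All 5 values were below both controls, as for 7.17% of all genes, and EPHA4 was named as the lowest of its list. Its log2 fold change was -1.05 without the arrays that stood apart, against -0.15 for DUSP6. The next lowest without those arrays were MYC at -0.41 and SPHK1 at -0.35. Both were also below both controls on all 5 hairpin arrays.

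Of 15 genes listed as other inhibitors of the same pathway, 13 were measured and 0 passed. They include SPRY3, a Sprouty gene outside the 6. DUSP4, DUSP5 and DUSP6 are also in the list of ERK-induced genes and NF1 in that of the partners, so the lists are not separate. For the hairpin average, 6 lay below 0 and 7 above, where 42% of all genes lay below. The median was 0.0043, against 0.075 over all genes. Without the arrays that stood apart 8 lay below 0, and the median was -0.11, against 0.0018 over all genes. Over all 7 arrays, the lowest were ERRFI1, an inhibitor of EGFR, at -1.27 and RASA2, which switches RAS off, at -0.88. The highest were FLRT3 at 0.12 and IL17RD, an inhibitor of FGF signalling, at 0.11. FLRT3 is a membrane protein that binds FGF receptors and is not an established inhibitor. Without the arrays that stood apart RASA2 was at -0.19, FLRT3 at 0.0079 and IL17RD at -0.04. The highest of this list were then DUSP5 and DUSP4, phosphatases of MAP kinases, at 0.52 and 0.36. Its lowest were then LRIG1 at -0.30 and DUSP7 at -0.26. ERRFI1 was 9.51, 7.60 and 10.02 with SHP2 sh2 and 11.20 and 8.16 with SHP2 sh1, against 10.55 and 10.71 with Ctrl shRNA. Like SPRY4, it was above the controls on replicate 1 of SHP2 sh1 and lowest on replicate 2 of each hairpin. ERRFI1 was at -0.15 without the arrays that stood apart.

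**Figure D5:**
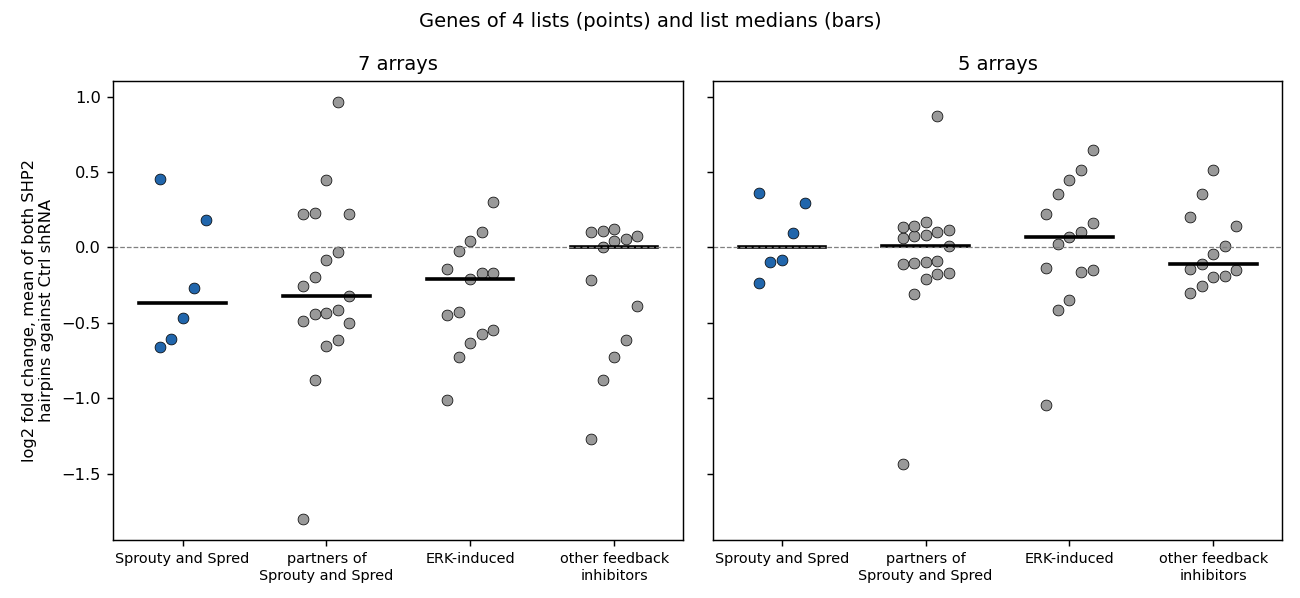
Log2 fold change of the average of both SHP2 hairpins against Ctrl shRNA for each measured gene (points) of 4 lists, with the list median as a bar, over all 7 arrays (left) and over the 5 arrays left without replicate 2 of each hairpin (right). The median of the Sprouty and Spred genes is -0.37 on the left and 0.0049 on the right, and PTPN11 is the lowest point of the partners in both.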

How the data were processed

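RNA of SUM159 cells was hybridized to 7 Human Gene 1.0 ST arrays. With oligo, whose version the sources used here do not give, the authors deposited log2 expression values from robust multi-array averaging (background correction, quantile normalization, and a summary per transcript). They run from 1.94 to 13.9 and were used as given. The labels name an RNeasy kit for the RNA and the paper's methods TRIzol. Arrays were grouped by title, and 0 columns were left without a sample.

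Of 33297 probes, 19460 had 1 gene symbol in the platform annotation, 1754 had several and 12083 were not listed. Symbols were updated through gene IDs, of which 19429 were found in RefSeq. The probe with the largest interquartile range stood for its gene, a choice that concerned 769 of 18417 genes and none of the 6. No dim probe was left out. limma (3.58.1, R 4.3.3) fitted 3 group means over all 7 arrays with eBayes. Tests were two-sided, p-values were adjusted by Benjamini-Hochberg over all 18417 genes, and the threshold was 0.05. The number of arrays limits the precision. The procedure was tested on simulated data with independent noise for each gene and array. These held no shift of whole brightness classes, so the test does not cover the arrays that stood apart.

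The members and the gene lists were chosen with earlier results of these data known. By rule the text names the 6 genes, PTPN11 and the 2 highest and 2 lowest of each pathway list. It also names the 2 genes nearest in pattern to each member. Other genes are named outside this rule, among them those highest or lowest in the ERK-induced and inhibitor lists without the arrays that stood apart. The alternatives were the brightest probe or the probes' mean for a gene, leaving out dim genes, normalization by cyclic loess or median centring, a trend in eBayes, array weights, a fit of the compared groups only, a replicate block, and leaving out single arrays. Leaving out both arrays that stood apart was added after seeing the data. The paper's other data and the paper's motif activity analysis were not analysed here.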

Additional observations from a re-analysis of the deposited data

How the results depend on the processing

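The 6 genes had 24 fold changes (4 comparisons each) and 402 values of them under the alternatives. Of these 402 values, 381 kept the direction, 21 did not and 0 passed the threshold (smallest adjusted p 0.132 from limma). Many could not turn. None of the 6 genes had a choice of probes, and leaving out dim genes or a trend in eBayes does not alter a fold change. Nor does fitting only the compared groups, or leaving out an array of a group not compared. With SHP2 sh1, array weights and the replicate block also left the values unchanged. The 381 is therefore not a measure of robustness. Without both arrays that stood apart, the values that turned were SPRY4 for the hairpin average (0.36) and with SHP2 sh1 (0.92), SPRY2 (0.036) and SPRED1 (0.0098) with SHP2 sh1, and SPRED1 between the hairpins (-0.19). Between the hairpins SPRED2 turned with cyclic loess (0.059) and array weights (0.078), SPRED3 with array weights (-0.042) and SPRED1 with the replicate block (-0.21). The cause was not tested. With single arrays left out, the values ran for SPRY4 from -1.03 to 0.095 for the mean, -1.34 to 0.92 with SHP2 sh1 and -1.65 to 0.61 between the hairpins, for SPRY2 from -0.27 to 0.036 and for SPRED1 from -1.37 to 0.0098 with SHP2 sh1, and between the hairpins for SPRED1 from -0.65 to 0.73, for SPRED2 from -0.45 to 0.35 and for SPRED3 from -0.0095 to 0.18. Leaving out replicate 2 of SHP2 sh1 turned the SPRY4 mean and the 3 SHP2 sh1 values. Between the hairpins, SPRY4 turned without SHP2 sh1 replicate 1 (0.61) or SHP2 sh2 replicate 2 (0.018), SPRED2 without the same arrays (0.35 and 0.30), SPRED3 without SHP2 sh2 replicate 2, and SPRED1 without SHP2 sh1 replicate 2, SHP2 sh2 replicate 1 (-0.17) or replicate 3 (-0.21). Gene-by-gene array weights called 122 genes with SHP2 sh2, none of the 6, and every other setting called 0 genes in each comparison.

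With the replicate number as a block, the replicate block fit gave 0 calls, -0.96 for SPRED2 with SHP2 sh2 (adjusted p = 0.215) and 0.56 for SPRY1 for the hairpin average (adjusted p = 0.420). The labels do not say that a number marks a shared culture or day. Same-numbered arrays deviated together between the hairpins (0.615 and 0.846) but not between SHP2 sh2 and Ctrl shRNA (0.0233 and -0.0274) or SHP2 sh1 and Ctrl shRNA (-0.0597 for each), and arrays of different number also did so (0.808 between SHP2 sh2 replicate 3 and SHP2 sh1 replicate 1). In a group of 2 arrays the deviations from the group mean are equal with opposite sign, so the values for SHP2 sh1 and Ctrl shRNA repeat 1 value. These correlations therefore cannot decide whether a number marks a pair, and the main fit used no pairing. Among the hairpin arrays, the same-numbered replicate 2 arrays are those that stood apart. The median standard error of the hairpin average over all genes was 0.264 with all arrays and 0.0941 without those that stood apart, where limma gave 0 calls and 1539 genes at an unadjusted p under 0.05.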
